A study of Drosophila mojavensis with 95 samples.

Results

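Among the 14528 transcripts measured in desiccated Drosophila mojavensis females, 60 were taken as the transcripts with the clearest peak at 9 h of desiccation. They were chosen by the array values themselves: the arrays of each group were averaged, the 8 combinations of population and rearing cactus were given equal weight at each hour, and the 60 transcripts with the highest score were kept. The score is the smaller of the rise (9 h minus 0 h) and the fall (9 h minus 18 h), both on the log2 scale. RNA from whole wild-type virgin females was hybridised to 95 one-colour arrays, in 24 groups of 3 to 5 arrays. Flies came from Punta Onah and Organ Pipe National Monument (spelled Manument in the labels) in Sonora, and from Punta Prieta and San Quintin in Baja California. Larvae grew in bottles on media containing either agria or organ pipe, and adults were then desiccated for 0, 9 or 18 h. The 3 hours have 31, 31 and 33 arrays, and 48 arrays come from Sonora and 47 from Baja California. The labels do not say whether the replicates of a group came from separate cultures, so p-values measure only the spread between these arrays, and a region stands for 2 populations. The age of the flies is not given in the labels, and they give every sample its own stock number, so the lines behind a population are not settled.

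Drosophila mojavensis breeds in rotting cactus, with agria as the main host in Baja California and organ pipe in mainland Sonora. Flies held without water lose it through the cuticle, the spiracles and excretion, and draw on stored glycogen and lipid, so a desiccation time course runs from hydrated to water-stressed animals. A transcript with a peak in the middle of such a course is high early in the exposure and low again later. Many insect transcripts also cycle with the hour of day. As every fly sampled at 9 or 18 h had been desiccated, desiccation, time without food and hour of day cannot be told apart here. The transcripts carry FlyBase identifiers, of which 0 occur in the gene table used here, so no gene name or function is given and transcripts are reported by identifier.

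Several arrays stood apart from their labels, and they are given here because the results use them. Over the 500 transcripts that best separated the populations, 6 of 95 arrays, all labelled Punta Prieta, lay nearest to another population. For 2 of them the gap was wide: Punta Prieta organ pipe arrays 3 and 4 at 0 h lay nearest to San Quintin and Punta Onah, at distances of 0.303 and 0.336 against 0.604 and 0.887 to their own label. Over 500 transcripts other than the 60 that best separated the hours, 9 arrays lay nearest to another hour. Among them were all 4 Organ Pipe National Monument agria arrays at 0 h, which lay nearest to 9 h. Over the 60 themselves 25 arrays lay nearest to another hour. These included all 4 Organ Pipe National Monument agria arrays at 9 h, which lay nearest to 0 or 18 h. Results are therefore given with all arrays as labelled. Where it changes a call or a count by over 1.5 times, they are also given without Punta Prieta organ pipe arrays 3 and 4 at 0 h. The same was done without the Organ Pipe National Monument agria flies of all hours. The other arrays that lay nearest to another label were not left out as a set.

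The transcripts that peaked at 9 h rose and fell by modest amounts, with a few large exceptions. The score ran from 0.32 to 1.87 with a median of 0.48, which is 1.24-fold to 3.66-fold over whichever of 0 and 18 h was higher. Of the 60, 22 stood at least 1.5-fold and 9 at least 2-fold above both other hours. The rise had a median of 0.60 and reached 1.87. The fall had the same median of 0.60 but reached 4.10, or 17.1-fold. These values chose the transcripts and were not tested. Over all 14528 transcripts, 2698 had a 9 h mean above both other means, and the median score was -0.08.

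FBtr0168945 had the highest score. Its 31 arrays at 0 h ran from 8.12 to 14.05 with a median of 10.72, its 31 arrays at 9 h from 10.34 to 13.83 with a median of 12.83, and its 33 arrays at 18 h from 7.29 to 12.28 with a median of 7.99. The 3 hours overlapped across populations, although 9 h was the highest by median. Its means over the combinations were 10.83 at 0 h, 12.70 at 9 h and 8.61 at 18 h. FBtr0172526 came next, with means of 11.77, 13.41 and 10.14. Its arrays ran from 9.92 to 14.43 with a median of 11.39 at 0 h, from 10.92 to 14.63 with a median of 13.63 at 9 h, and from 8.99 to 13.02 with a median of 9.70 at 18 h. At the other end of the list, FBtr0174347 was kept with a score of 0.32 and FBtr0162564 was the first left out, also at 0.32 (1.24-fold in both).

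By 18 h the change from the starting level ran from -2.52 to 0.66. The 18 h mean lay below the 0 h mean in 38 and above it in 22. It was within 0.5 of the 0 h mean in 44, at least 0.5 lower in 15 and at least 0.5 higher in 1. FBtr0167058 dropped furthest below its start: its means at 0, 9 and 18 h were 11.72, 12.71 and 9.20, a difference of -2.52 between 18 and 0 h. FBtr0168945 was next at -2.23. FBtr0175354 stayed furthest above its start, with means of 10.75, 11.82 and 11.42, a difference of 0.66. FBtr0162628 followed at 0.42, with means of 10.51, 11.25 and 10.93. The 15 that ended at least 0.5 below their start also held 12 of the 15 highest scores. This split was drawn from the values and serves only to describe them. The limit of 0.5 does not mark a gap: FBtr0173987, at -0.44, and FBtr0171944, at -0.54, lie on either side of it.

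**Figure D1:**
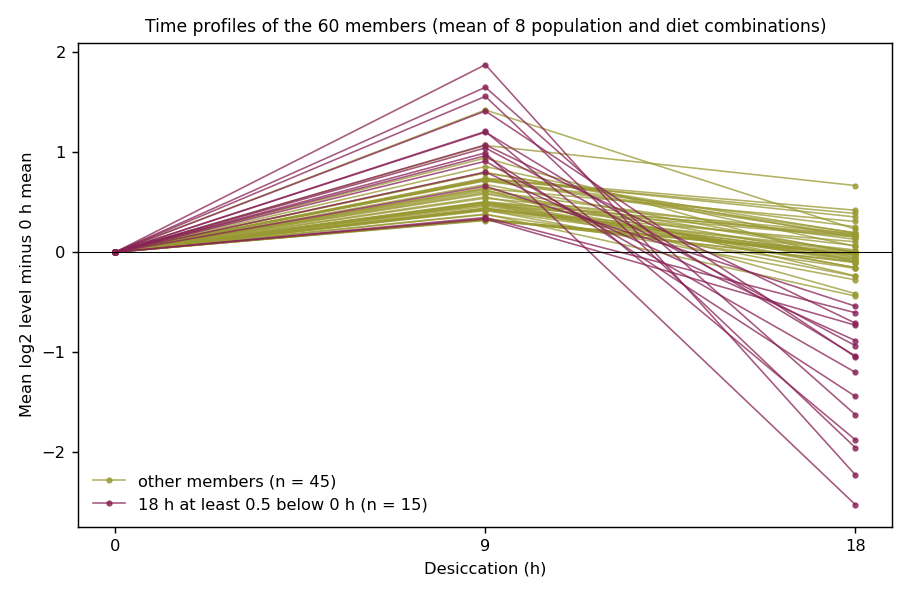
Mean log2 level of each of the 60 transcripts at 0, 9 and 18 h of desiccation, minus its own 0 h mean, averaged over the 8 combinations of population and rearing cactus; each line is 1 transcript. The 15 transcripts that end at least 0.5 below their start (purple) include the tallest peaks, up to 1.87 at 9 h, and reach -2.52 at 18 h, while the other 45 (olive) end within 0.5 of their start, except 1 that ends 0.66 above it.

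The peak was present in most combinations of population and cactus, but its height was uneven. In 21 transcripts the 9 h mean lay above both other means in all 8 combinations, in 28 it did so in 7, in 8 in 6 and in 3 in 5. All 60 showed it in San Quintin on either cactus, in Punta Prieta on organ pipe and in Organ Pipe National Monument on organ pipe. In Punta Onah 53 did so on agria and 53 on organ pipe, in Punta Prieta 47 on agria, and in Organ Pipe National Monument 34 on agria. Over all transcripts the 9 h mean was above both others in 19.3% and 13.7% in Punta Onah on agria and organ pipe. For San Quintin the shares were 31.7% and 33.9%, for Punta Prieta 31.9% and 28.9%, and for Organ Pipe National Monument 32.2% and 20.9%. The averages over these combinations chose the transcripts, so nothing is read from these shares.

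The median over the 60 transcripts of an array's deviation from each transcript's mean was 0.01 to 0.70 in the 9 h arrays, -0.49 to 0.52 in the 0 h arrays and -0.56 to 0.04 in the 18 h arrays. Within 6 of the 8 combinations every 9 h array lay above every 0 h and 18 h array by this measure. The exceptions were Organ Pipe National Monument on agria, whose lowest 9 h array (0.01) lay below its highest 18 h array (0.04), and Punta Prieta on organ pipe, whose lowest 9 h array (0.45) lay below its highest 0 h array (0.52). Those Punta Prieta arrays at 0 h spread from -0.43 to 0.52, the widest range of any of the 24 groups.

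**Figure D2:**
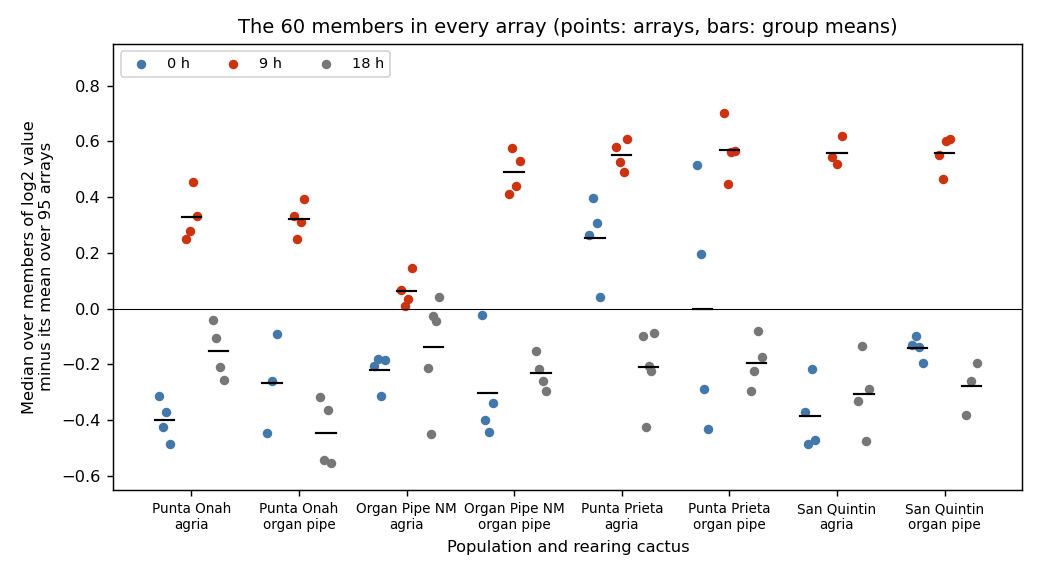
For each of the 95 arrays, the median over the 60 transcripts of the log2 value minus the transcript's mean over all arrays, by population and rearing cactus; points are arrays, coloured by hour, and bars are group means. The 9 h arrays run from 0.01 to 0.70, lowest in Organ Pipe National Monument on agria, and the Punta Prieta 0 h arrays lie above those of the other populations except for 2 organ pipe arrays.

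Taken transcript by transcript, every 9 h array lay above every 0 h and 18 h array for 50 of the 60 in San Quintin on agria and for 39 on organ pipe, where 2.1% and 7.65% of all transcripts did so. The counts were 29 and 34 in Punta Onah (0.564% and 1.26% of all transcripts), each on agria and then organ pipe. For Organ Pipe National Monument they were 2 and 33 (0.179% and 1.27%) and for Punta Prieta 14 and 11 (0.262% and 0.289%). No transcript met this in all 8 combinations or in 7, and 7 met it in 6. The peak, taken as 9 h minus the average of 0 and 18 h, had a median on agria of 0.83 (San Quintin), 0.57 (Punta Prieta), 0.49 (Punta Onah) and 0.27 (Organ Pipe National Monument). On organ pipe the same medians were 0.70, 0.66, 0.68 and 0.59. Organ Pipe National Monument on agria held the lowest peak of 35 transcripts. San Quintin on agria held the highest of 24 and Punta Onah on organ pipe the highest of 16.

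**Figure D3:**
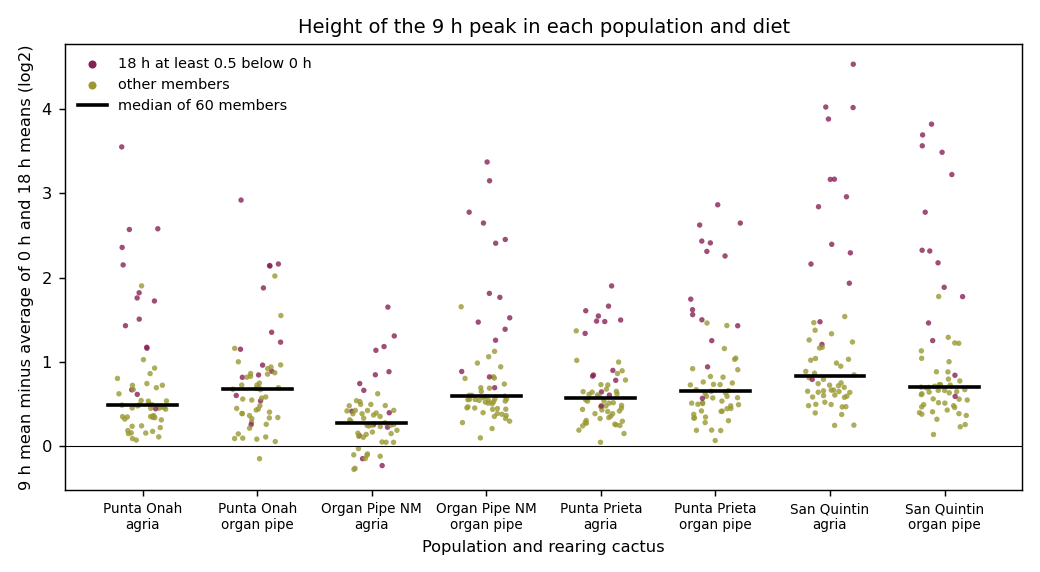
Height of the 9 h peak of each transcript (9 h mean minus the average of the 0 and 18 h means, log2) in each combination of population and rearing cactus; points are transcripts, purple for the 15 that end at least 0.5 below their start and olive for the other 45, and black bars are medians over the 60. The median runs from 0.27 in Organ Pipe National Monument on agria to 0.83 in San Quintin on agria.

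The rule did not take differences between populations or diets, and these were tested, but the tests are not free of how the transcripts were chosen. A transcript with a large peak in 1 region can enter the list through that region. Scored within Sonora alone, a check added after seeing the data, 26 of the 60 lay below the lowest score on the list, and within Baja California alone 5 did. The regional counts for the peak, the rise and the fall, and the F test, are therefore favoured by the choice, and nothing particular to the 60 is read from their shares beside those of all transcripts. The same limit holds for diet and for contrasts between populations. It also holds for the level and for single hours, because the means at each hour entered the rule. Each contrast was fitted with limma over all 14528 transcripts, with p-values adjusted by the Benjamini-Hochberg method over all of them and a call at an adjusted p under 0.05. The first question was whether the 9 h peak differed between regions. Flies from Baja California had the taller peak in all 12 of the 60 transcripts that were called, where 0.53% of all transcripts were called and 0.399% were higher in Baja California. Of the 12, 8 scored below the list's lowest score within Sonora and 0 within Baja California. The other 48 did not pass, and 43 of the 60 had the higher estimate in Baja California. The median difference was 0.11 over the 60 and 0.01 over all transcripts.

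FBtr0162063 differed most. In Baja California its arrays ran from 7.26 to 12.53 with a median of 8.47 at 0 h (n = 16), from 10.84 to 12.33 with a median of 11.72 at 9 h (n = 15), and from 6.43 to 9.10 with a median of 7.51 at 18 h (n = 16). The Sonoran arrays ran from 7.24 to 9.60 with a median of 7.65 at 0 h (n = 15), from 7.67 to 10.11 with a median of 8.53 at 9 h (n = 16), and from 7.0 to 8.01 with a median of 7.71 at 18 h (n = 17). The regions overlapped at 0 and 18 h and were fully apart at 9 h. The peak averaged 3.03 against 0.83 in Sonora, which is a difference of 2.20 ± 0.297 (SE; adjusted p = 8.35e-07 by limma).

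FBtr0168870 came next. Its 9 h arrays ran from 11.35 to 12.57 with a median of 12.06 in Baja California and from 8.70 to 11.09 with a median of 9.72 in Sonora. The regions did not overlap at 9 h, while its 0 h arrays (8.39 to 12.67 against 8.31 to 9.69) and its 18 h arrays (7.77 to 10.17 against 7.94 to 8.90) did. Its peak averaged 2.44 against 1.00 in Sonora, which is a difference of 1.44 ± 0.244 (SE; adjusted p = 8.61e-05 by limma). In a fit of organ pipe flies alone, which holds fewer arrays and was chosen after seeing the data, 1 transcript was called. There FBtr0162063 differed by 2.21 (adjusted p = 0.117 by limma) and FBtr0168870 by 1.35 (adjusted p = 0.217 by limma), close to the differences over both diets.

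**Figure D4:**
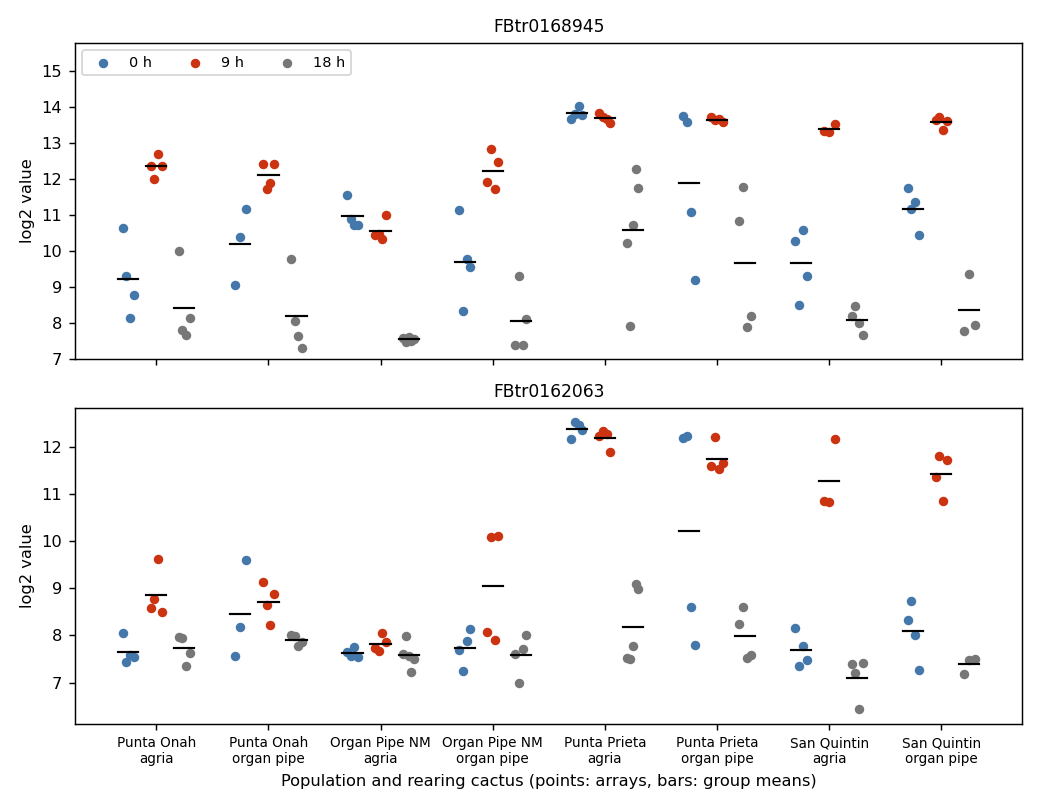
Log2 values of FBtr0168945, the transcript with the highest score, and FBtr0162063, whose peak differed most between regions, in each of the 95 arrays by population and rearing cactus; points are arrays, coloured by hour, and bars are group means. At 9 h FBtr0162063 lies at 10.84 or above in every Baja California array and at 10.11 or below in every Sonoran array, and at 0 h it is already near its 9 h level in Punta Prieta, except in 2 organ pipe arrays.

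The regional difference was also tested in the rise before 9 h and in the fall after it. For the fall, 20 of the 60 were called (33.3%), all with the larger fall in Baja California, where 1.83% of all transcripts were called and 1.29% had the larger fall there. For the rise, 3 were called (5.0%), all with the larger rise in Baja California, against 0.234% of all transcripts and 0.0895% in that direction. All 3 of these, and 12 of the 20 called for the fall, scored below the list's lowest score within Sonora, and 0 did within Baja California, so they entered through Baja California. All 3 were also among the 20 called for the fall, and 17 were called for the fall alone. A p that misses the threshold does not show that the rise was equal, and the number called for the rise was 0 without replicate 1, 2, 3 or 4, and 0 without the Organ Pipe National Monument agria flies. Without replicate 1 the number called for the fall was 11. The median difference over the 60 was 0.22 for the fall and 0.04 for the rise.

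For FBtr0162063 the fall was 3.99 in Baja California against 0.92 in Sonora, which is a difference of 3.08 ± 0.341 (SE; adjusted p = 1.31e-09 by limma). For FBtr0168870 the fall was 3.20 and 1.27, a difference of 1.94 ± 0.28 (adjusted p = 9.47e-07 by limma). The largest regional differences in rise, 1.32 for FBtr0162063 (adjusted p = 0.0731 by limma) and 0.95 for FBtr0168870 (adjusted p = 0.137 by limma), did not pass. The 2 largest of the 3 that passed follow. FBtr0160877 had Sonoran medians of 8.64, 8.81 and 8.57 at 0, 9 and 18 h, with overlapping arrays, and Baja California medians of 8.56, 10.40 and 8.44. Its 9 h arrays in Baja California, from 9.58 to 11.06, all lay above the Sonoran ones, from 8.47 to 9.19. Its rise was 1.03 against 0.21 in Sonora, which is a difference of 0.82 ± 0.184 (adjusted p = 0.0232 by limma). In San Quintin its arrays ran from 8.03 to 8.64 at 0 h and from 9.58 to 10.62 at 9 h, fully apart. In Punta Prieta on agria they ran from 10.45 to 10.91 at 0 h and from 10.39 to 10.98 at 9 h, with no rise visible. The Punta Prieta organ pipe arrays at 0 h read 10.90, 10.82, 8.56 and 8.50, the last 2 being arrays 3 and 4. FBtr0162212 had rises of 1.04 and 0.25, a difference of 0.79 ± 0.189 (adjusted p = 0.0437 by limma), and its 9 h arrays (9.78 to 11.52 against 8.41 to 9.95) overlapped slightly. Without Punta Prieta organ pipe arrays 3 and 4 at 0 h the second difference was 0.50 (adjusted p = 0.0696 by limma), and 1 of the 60 was called for the rise.

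**Figure D5:**
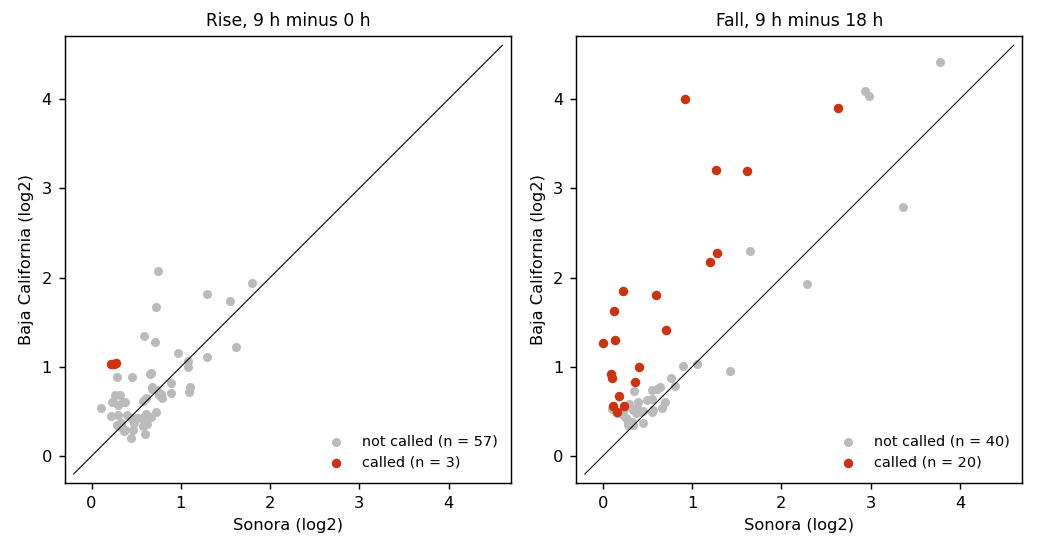
Rise (left, 9 h minus 0 h) and fall (right, 9 h minus 18 h) of each of the 60 transcripts in Baja California against Sonora, in log2, each averaged over 2 populations and 2 cacti; the line marks equal values and red points are transcripts called by limma at an adjusted p under 0.05. All 3 transcripts called for the rise and all 20 called for the fall lie above the line.

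The level itself, averaged over hours, also differed between regions. For 48 of the 60 (80.0%) the difference passed the test, where 34.8% of all transcripts did. Baja California flies had the higher level in 34 (18.1% of all transcripts) and the lower level in 14 (16.7%). All 12 transcripts called for the regional difference in peak were among them, and 36 were called for level but not for peak. FBtr0162061 averaged 12.71 against 10.99 in Sonora, which is a difference of 1.72 ± 0.16 (SE; adjusted p = 6.79e-15 by limma), and its 9 h arrays (13.56 to 14.34 against 11.38 to 13.30) did not overlap. FBtr0162063 averaged 9.64 and 8.06, a difference of 1.58 ± 0.14 (adjusted p = 6.63e-16 by limma). In the other direction, FBtr0175198 averaged 11.42 against 12.18 in Sonora, which is a difference of -0.77 ± 0.0581 (adjusted p = 5.81e-19 by limma), and FBtr0174268 averaged 10.87 and 11.52, a difference of -0.65 ± 0.0427 (adjusted p = 3.77e-22 by limma). The 15 transcripts that ended at least 0.5 below their start had a median difference of 1.27, and the other 45 a median of 0.06.

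Hour by hour, in contrasts chosen after seeing the data, the regions differed before desiccation in 31 of the 60, 27 higher and 4 lower in Baja California. The median level of the 60 at 0 h was 10.51 in Sonora, 10.51 in San Quintin and 10.93 in Punta Prieta. The calls at 0 h thus need not hold for both Baja California populations. At 9 h 40 were called, 32 higher and 8 lower, and after 18 h 30, of which 16 were higher and 14 lower. After median centring the 18 h calls were 15 higher and 17 lower, and with the first axis removed 13 and 16, so their balance has no settled direction. The shares of all transcripts called were 14%, 15.2% and 48.4%, so the count at 18 h is near that of all transcripts. By direction, 7.3%, 8.99% and 22.8% of all transcripts were higher in Baja California and 6.69%, 6.25% and 25.6% lower. The means at each hour entered the rule, so nothing particular to the 60 is read from the counts at 0 and 9 h. FBtr0162063 stood 1.73 higher in Baja California at 0 h, 3.05 ± 0.244 higher at 9 h (adjusted p = 5.49e-17 by limma), and was not called at 18 h. At 0 h its Sonoran mean was 7.86, with 7.89 in San Quintin and 11.29 in Punta Prieta, so the difference at that hour lay in Punta Prieta, and on organ pipe alone it was 1.06 (adjusted p = 0.242 by limma). FBtr0175198 averaged lower in Baja California at every hour, with differences of -0.65, -0.80 and -0.85. Its Sonoran arrays ran from 11.53 to 12.28, from 12.22 to 12.84 and from 11.63 to 12.57 at 0, 9 and 18 h, and its Baja California arrays from 10.19 to 12.32, from 11.10 to 12.29 and from 10.52 to 12.36, so the regions overlapped at each hour. At 0 h the San Quintin arrays of FBtr0175198 ran from 10.19 to 11.10 and its Punta Prieta arrays from 11.04 to 12.32. The Sonoran range at 0 h lay within that of Punta Prieta, so the difference at that hour lay mainly in San Quintin. On organ pipe alone 12, 26 and 18 of the 60 were called at 0, 9 and 18 h. The shares of all transcripts in that fit are not given here, so nothing particular to the 60 is read from these counts.

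The Baja California populations were compared at each hour. At 0 h 37 of the 60 were called between San Quintin and Punta Prieta (61.7%), 36 of them lower in San Quintin, where 18.1% of all transcripts were called and 7.78% were lower. At 9 h 0 of the 60 and 0.0206% of all transcripts were called by limma, with 10 of the 60 at an unadjusted p under 0.05 and 8 called when arrays were weighted. At 18 h 16 were called (26.7%), 14 of them lower in San Quintin, against 11% and 3.66% of all transcripts. These contrasts were chosen after seeing the data. The means at each hour entered the rule, so nothing particular to the 60 is read from these shares. Whether the difference at 0 h exceeded that at 9 h is the contrast of the rise between these populations, which was not tested on its own.

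FBtr0162063 shows the pattern at 0 h. Its Punta Prieta arrays read 12.16, 12.53, 12.46 and 12.35 on agria and 12.19, 12.22, 8.60 and 7.81 on organ pipe. The San Quintin arrays read 8.16, 7.35, 7.77 and 7.48 on agria and 8.33, 8.74, 8.02 and 7.26 on organ pipe. Every Punta Prieta agria array lay above every San Quintin array, while organ pipe arrays 3 and 4, which lay nearest to other populations, overlapped them. The difference was -3.40 ± 0.338 (SE; adjusted p = 1.57e-11 by limma). By 9 h the populations overlapped, with 11.54 to 12.33 in Punta Prieta and 10.84 to 12.16 in San Quintin. FBtr0168870 differed by -2.52 ± 0.278 at 0 h (adjusted p = 2.87e-10 by limma), and FBtr0170700 went the other way, at 11.13 in San Quintin and 10.55 in Punta Prieta, a difference of 0.58 ± 0.102 (adjusted p = 3.32e-05 by limma).

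In Punta Prieta agria flies the 15 transcripts that ended furthest below their start were near their 9 h level at 0 h. Their median level was 13.52 at 0 h, 13.64 at 9 h and 10.57 at 18 h, and their median rise was 0.02. In San Quintin agria flies the same medians were 10.75, 13.41 and 9.54, with a median rise of 1.98. FBtr0168945 read 13.67, 13.82, 14.05 and 13.79 in the Punta Prieta agria arrays at 0 h and 13.83, 13.74, 13.68 and 13.56 at 9 h, so the hours overlapped there. In San Quintin on agria it read 10.29, 8.51, 10.58 and 9.31 at 0 h and 13.35, 13.33 and 13.55 at 9 h, fully apart. On organ pipe the Punta Prieta arrays at 0 h split: FBtr0168945 read 13.75 and 13.60 in arrays 1 and 2 and 11.09 and 9.19 in arrays 3 and 4. Over the 60 transcripts, all 4 Punta Prieta agria arrays at 0 h were closer to the average 9 h profile than to the average 0 h profile, and over other transcripts arrays 1 and 3 were too.

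At 18 h FBtr0168945 averaged 8.22 in San Quintin and 10.13 in Punta Prieta, a difference of -1.91 ± 0.472 (adjusted p = 0.00889 by limma). Its San Quintin arrays ran from 7.67 to 9.36 and its Punta Prieta arrays from 7.89 to 12.28, with overlap. For FBtr0172526 the difference was -1.69 ± 0.341 (adjusted p = 0.00168 by limma). Higher in San Quintin at 18 h were FBtr0164019, by 0.58 ± 0.155 (adjusted p = 0.0134 by limma), and FBtr0168511, by 0.57 ± 0.139 (adjusted p = 0.0076 by limma). Without replicate 1 the number called at 18 h fell to 4 and the number at 0 h to 22. On organ pipe alone, with fewer arrays, 5 were called at 0 h and 1 at 18 h.

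Averaged over hours, 31 of the 60 differed between the Baja California populations (51.7%), 2 higher and 29 lower in San Quintin, where 16.3% of all transcripts were called and 4.83% were lower. FBtr0162063 was lower there by 1.61 ± 0.199 (8.83 against 10.44; adjusted p = 1.54e-08 by limma) and FBtr0168945 by 1.51 ± 0.273 (10.71 against 12.22; adjusted p = 7.11e-05 by limma). The 2 higher in San Quintin were FBtr0164019, by 0.40 ± 0.0896 (adjusted p = 0.00119 by limma), and FBtr0170700, by 0.21 ± 0.0599 (adjusted p = 0.0115 by limma). On organ pipe alone 4 were called, and FBtr0162063 (-1.01, adjusted p = 0.0726 by limma) and FBtr0168945 (-0.71, adjusted p = 0.31 by limma) no longer passed. For the height of the peak limma called 0 of the 60 and 0% of all transcripts between these populations. Of the 60, 25 had an unadjusted p under 0.05, and their smallest adjusted p was 0.0523. The estimate was higher in San Quintin for 49 of the 60, with a median of 0.24. Without Punta Prieta organ pipe arrays 3 and 4 at 0 h 22 were called, 20 higher and 2 lower in San Quintin, and with array weights 28. The shares of all transcripts in these alternative fits are not given here, so nothing particular to the 60 is read from the counts.

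Between the Sonoran populations the level differed in 17 of the 60 (28.3%), where 15.3% of all transcripts were called. In Organ Pipe National Monument 13 were higher (8.91% of all transcripts) and 4 lower (6.35%). FBtr0173987 ran from 12.33 to 12.73 at 0 h and from 12.71 to 13.13 at 9 h in Organ Pipe National Monument, above all Punta Onah arrays at those hours (11.78 to 12.06 and 12.24 to 12.51), while the 18 h arrays overlapped. Its difference in level was 0.63 ± 0.0604 (adjusted p = 1.08e-13 by limma). FBtr0161910 was higher by 0.76 ± 0.119 (adjusted p = 8.18e-07 by limma). At 0 h its Organ Pipe National Monument arrays ran from 9.72 to 11.25 and its Punta Onah arrays from 8.64 to 9.52, with no overlap. FBtr0168511 was lower in Organ Pipe National Monument by 0.81 ± 0.0793 (adjusted p = 3.11e-13 by limma), with arrays of both populations overlapping at each hour. FBtr0167058 differed by -0.69 ± 0.234 (adjusted p = 0.0326 by limma), but by -0.27 without the agria flies of that population (adjusted p = 0.601 by limma). For the height of the peak 0 of the 60 and 0.00688% of all transcripts were called by limma between these populations, with 12 of the 60 at an unadjusted p under 0.05 and 2 called with array weights. The estimate was lower in Organ Pipe National Monument for 45 of the 60, with a median of -0.16.

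The rearing cactus was compared next. Over the 4 populations, 0 of the 60 and 0.00688% of all transcripts were called by limma for a diet difference in the peak, with 7 of the 60 at an unadjusted p under 0.05 and 7 called with array weights. The estimate was higher on organ pipe for 55 of the 60, with a median of 0.14 and a median SE of 0.119. For the level 0 of the 60 and 0.0138% of all transcripts were called, with 6 of the 60 at an unadjusted p under 0.05, 3 called with array weights and a median difference of 0.02.

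Inside single populations limma called 0 of the 60 for the diet difference in peak. Of all transcripts 0% were called in Punta Onah and in Punta Prieta and 0.00688% in San Quintin. With array weights it called 2 in San Quintin, 3 in Punta Prieta and 33 in Organ Pipe National Monument, where leaving out replicate 1 gave 7. The shares of all transcripts in those alternative fits are not given here, so nothing particular to the 60 is read from their counts. In Organ Pipe National Monument 29 had an unadjusted p under 0.05, 55 had the higher estimate on organ pipe, and the median difference was 0.43 (smallest adjusted p = 0.0997 by limma; 0% of all transcripts called). In the other populations, contrasts chosen after seeing the data, the median difference was 0.06 in Punta Onah, 0.15 in Punta Prieta and -0.19 in San Quintin, with 5, 2 and 4 at an unadjusted p under 0.05. A test of the difference itself, also chosen after seeing the data, Organ Pipe National Monument minus the mean of the other populations, called 8 of the 60 (13.3%), all with the larger diet difference in Organ Pipe National Monument, against 6.61% of all transcripts and 5.09% in that direction. FBtr0163932 differed by 2.16 ± 0.505 (adjusted p = 0.0434 by limma) and FBtr0168350 by 1.13 ± 0.296 (adjusted p = 0.0441 by limma). That count was 0 after median centring of the arrays, with the first axis of within-group deviations removed, with the replicate block, and without replicate 2, 3 or 4. It was 17 without replicate 1 and 1 without Punta Prieta organ pipe arrays 3 and 4 at 0 h.

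Array values show both diets of Organ Pipe National Monument. FBtr0163932 read 9.74, 9.48, 8.91 and 9.18 at 0 h and 8.60, 8.52, 7.96 and 8.70 at 9 h on agria, with every 9 h array below every 0 h array. On organ pipe it read 9.74, 8.24, 8.89 and 8.24 at 0 h and 9.95, 10.53, 9.76 and 9.96 at 9 h, with every 9 h array above every 0 h array. Of the rise inside this population, a contrast chosen after seeing the data, 4 of the 60 were called for diet (6.67%), all with the larger rise on organ pipe, against 0.0551% of all transcripts, 0.0275% with the larger rise on organ pipe and 0.0275% with the larger rise on agria. FBtr0168350 read 11.12, 11.03, 11.09 and 11.31 at 0 h and 10.89, 10.86, 10.73 and 10.87 at 9 h on agria, and 11.23, 10.57, 9.49 and 9.70 at 0 h and 11.11, 11.35, 11.24 and 11.49 at 9 h on organ pipe. Its 9 h arrays lay below the 0 h arrays on agria, while on organ pipe the first 0 h array overlapped them. The rise differed by 1.35 ± 0.296 (adjusted p = 0.0426 by limma) and that of FBtr0168502 by 1.15 ± 0.252 (adjusted p = 0.0426 by limma). The count was 0 without replicate 2, 3 or 4 and with the first axis removed, 2 with median centring (where FBtr0168502 had an adjusted p of 0.0702 by limma) and without the second array order, 6 without replicate 1 and 32 with array weights. This rise uses the agria arrays at 0 h that lay nearest to 9 h over other transcripts; their part in it was not tested.

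An F test over the 8 combinations of population and cactus asked whether the peak was equal in all of them. It called 20 of the 60 (33.3%), against 1.34% of all transcripts. Of those called, FBtr0162063 had the widest range of peak. On agria its peak was 3.88 (San Quintin), 1.90 (Punta Prieta), 1.18 (Punta Onah) and 0.23 (Organ Pipe National Monument), and on organ pipe 3.69, 2.65, 0.54 and 1.39 (adjusted p = 2.56e-05 by limma). FBtr0172526 had a peak of 0.89 in Organ Pipe National Monument on agria and 4.02 in San Quintin on agria (adjusted p = 0.0192 by limma). Without the agria flies of Organ Pipe National Monument 2 of the 60 were called, without all flies of that population 4, on organ pipe alone 0, and with array weights 52. Without replicate 1, 2, 3 or 4 the counts were 10, 7, 5 and 8. Shares of all transcripts in these alternative fits are not given here, so nothing particular to the 60 is read from the counts.

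The spread between arrays of a group was also described. The 60 transcripts' within-group SD had a median of 0.274, against 0.201 over all transcripts, and 19 of the 60 lay among the highest 10% of all transcripts. FBtr0168945 had the highest of all 14528, at 0.952. The 15 that ended at least 0.5 below their start had a median of 0.548 and the other 45 one of 0.248. The mean level had a median of 10.88, against 10.29 over all transcripts.

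Within groups the 15 also moved together from array to array. Over the 105 pairs of these 15, the deviations from group means over 95 arrays correlated at a median r of 0.69. The median was 0.24 over the 990 pairs of the other 45 and 0.13 over the 675 pairs between both sets. The means were 0.60 within the 15, 0.23 within the other 45 and 0.15 between both sets. Over all pairs of the 14528 transcripts the mean was 0.03. Without the 4 Punta Prieta organ pipe arrays at 0 h, which split by replicate, the median was 0.60 within the 15 and 0.00 between both sets. With the first axis of within-group deviations removed, the median within the 15 was 0.72. Pairs share the same arrays and were chosen for a shared time profile, so these values are a description.

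The same rule applied to parts of the data returned most of the list. Of the 60, 52 were chosen again from organ pipe arrays only, 48 from agria arrays only, 45 from Baja California arrays only and 35 from Sonoran arrays only, where the lowest-placed of the 60 ranked 1600. The 15 with the highest scores were chosen again in each of these. Each of these subsets shares its arrays with the full data.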

How the data were processed

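Total RNA from 95 samples of whole virgin females was labelled with Cy3 and hybridised to NimbleGen arrays, per the labels. The authors deposited 1 log2 value per transcript and array, made with RMA (robust multi-array average), per the submitters' processing notes; its version, background settings and annotation are not given in the sources used here. RMA corrects background, quantile-normalizes probes and summarises them per transcript, so a shift shared by most transcripts is removed. The lowest deposited log2 value was 4.52 and the highest 15.6, with medians per array of 10.17 to 10.40. No detection calls were used, so the distance of low transcripts from background is not known, and the number of arrays limits the precision. All columns were matched to samples, with 0 left over, and 0 pairs of arrays were identical.

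A model with 1 mean for each of the 24 groups was fitted in limma 3.58.1 under R 4.3.3 (71 residual degrees of freedom, no covariate or filter), with two-sided moderated tests and Benjamini-Hochberg adjustment over 14528 transcripts at 0.05. Contrasts weight groups equally. Errors are SE of the fit. The 60 transcripts and the contrasts were chosen with earlier results of these data known. Named transcripts are, for each comparison, the called members with up to 2 largest positive and 2 largest negative differences; for the description, the highest scores, the edge of the list and the extremes at 18 h; for the F test, the widest ranges. On simulated data with a known regional difference in peak among 14528 transcripts, the fit recovered 35.8%, 79.1% and 100% of those changed by 0.25, 0.5 and 1 on the log2 scale, with 5 unchanged transcripts called. For a diet difference the shares were 32.8%, 83.6% and 100%, with 10 unchanged transcripts called. The simulated deviations were independent between transcripts, and the changed transcripts were drawn from all. The 60 have a higher spread and correlated deviations, so these shares need not hold for them.

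Alternatives were median centring of each array, removal of the first axis of within-group deviations (41.8% of that variance), array weights, replicate number as a block, leaving out each replicate number, the 2 Punta Prieta arrays, the 4 arrays that a deposited note assigns to a second array order, the dimmest 20% of transcripts, or the agria flies of Organ Pipe National Monument. Organ pipe flies alone and leaving out all Organ Pipe National Monument flies were added after seeing the data.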

Additional observations from a re-analysis of the deposited data

Results flagged for a closer look

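The tested differences between groups are listed with their values. The regional difference in the peak was called for 12 of the 60 transcripts (0.53% of all transcripts), with 2.20 for FBtr0162063 and 1.44 for FBtr0168870. The regional difference in the rise was called for 3 (0.234%), with 0.82 for FBtr0160877 and 0.79 for FBtr0162212. In the fall it was called for 20 (1.83%), with 3.08 for FBtr0162063 and 1.94 for FBtr0168870. The F test over combinations of population and cactus called 20 (1.34%). The diet difference in peak was larger in Organ Pipe National Monument than in the other populations for 8 (6.61%, with 5.09% in that direction), by 2.16 for FBtr0163932 and by 1.13 for FBtr0168350. Leaving out a replicate number gave 0 to 3 for the rise, 5 to 17 for the F test and 0 to 17 for this diet difference. Neither FBtr0163932 nor FBtr0168350 was called after median centring. The choice of the transcripts favours these counts, so nothing particular to the 60 is read from them.

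Single arrays that lay far from the others of their group were sought for the 24 named transcripts and for the median over the 60, in the groups of 4 or 5 arrays. Of 525 checks 29 met the limit, and chance gives about 1 in 20. In Punta Onah on agria, FBtr0172526 read 11.68 at 0 h against 9.94 to 10.10 and FBtr0160877 read 8.03 at 0 h against 8.55 to 8.58. Also in Punta Onah on agria, FBtr0168870 read 10.56 at 9 h against 9.68 to 9.81 and FBtr0173987 read 12.24 at 9 h against 12.47 to 12.47. Also in Punta Onah on agria, FBtr0160877 read 9.19 at 9 h against 8.85 to 8.88 and FBtr0163932 read 10.55 at 9 h against 9.70 to 9.82. In Punta Onah on organ pipe, FBtr0162628 read 9.79 at 18 h against 10.80 to 10.86 and FBtr0164019 read 10.35 at 18 h against 10.80 to 10.88. In Organ Pipe National Monument on agria, FBtr0168350 read 10.73 at 9 h against 10.86 to 10.89 and FBtr0161910 read 9.34 at 18 h against 10.80 to 11.14. In Organ Pipe National Monument on organ pipe, FBtr0161910 read 11.16 at 0 h against 9.72 to 9.84 and FBtr0162564 read 12.10 at 18 h against 11.88 to 11.91. Also in Organ Pipe National Monument on organ pipe, FBtr0162061 read 10.22 at 18 h against 7.71 to 7.96 and FBtr0162212 read 8.45 at 18 h against 9.14 to 9.19. In Punta Prieta on agria, FBtr0168870 read 12.67 at 0 h against 12.26 to 12.31 and FBtr0162061 read 14.18 at 0 h against 14.03 to 14.05. Also in Punta Prieta on agria, FBtr0168870 read 12.57 at 9 h against 12.26 to 12.27 and FBtr0170700 read 11.49 at 9 h against 11.26 to 11.28. Also in Punta Prieta on agria, FBtr0168259 read 12.13 at 18 h against 13.58 to 14.02. In Punta Prieta on organ pipe, FBtr0164019 read 10.71 at 0 h against 11.72 to 11.85 and FBtr0162063 read 12.21 at 9 h against 11.54 to 11.65. Also in Punta Prieta on organ pipe, FBtr0160877 read 11.06 at 9 h against 10.34 to 10.42. In San Quintin on agria, FBtr0162564 read 12.01 at 18 h against 11.80 to 11.82 and FBtr0168259 read 12.74 at 18 h against 11.94 to 12.02. In San Quintin on organ pipe, FBtr0167058 read 9.83 at 0 h against 11.89 to 12.14 and FBtr0161910 read 10.21 at 0 h against 9.58 to 9.66. Also in San Quintin on organ pipe, FBtr0173987 read 12.53 at 0 h against 12.01 to 12.09 and FBtr0168502 read 11.91 at 9 h against 12.13 to 12.15. Also in San Quintin on organ pipe, FBtr0163932 read 10.35 at 9 h against 11.56 to 11.71. Each value is that of 1 array beside the range of the others of its group.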

How the results depend on the processing

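None of the named differences changed sign under the alternatives run. Among the counts, the split of the regional difference at 18 h (16 higher, 14 lower) turned to 15 and 17 with median centring, 13 and 16 with the first axis removed, 13 and 14 without the Organ Pipe National Monument agria flies, and 9 and 15, 10 and 15, 14 and 15, and 12 and 14 without replicate 2, 3, 4 or 5. Array weights gave 19 for the regional peak, 18 for the regional rise, 52 for the F test, 28 and 2 for the peak between the Baja California and the Sonoran populations, 29 for the Sonoran level, 8 between the Baja California populations at 9 h, and for diet 7 in the peak and 3 in the level. For diet inside populations they gave 33 (peak), 32 (rise) and 19 (fall) in Organ Pipe National Monument, 30 for its difference from the others, 3 (peak) and 8 (rise) in Punta Prieta and 2 (peak) in San Quintin. On organ pipe alone the counts were 1 for the regional peak, 0 for the rise, 11 for the fall, 12, 26 and 18 for the region at 0, 9 and 18 h, 5, 1 and 4 between the Baja California populations at 0 h, at 18 h and in level, and 0 for the F test. Without the Organ Pipe National Monument agria flies they were 0 for the regional rise, 2 for the F test (4 without the whole population), 4 for the Baja California peak and 1 for the diet level. Without the 2 Punta Prieta arrays they were 1 for the regional rise, 22 for the Baja California peak, 1 between those populations at 9 h, and 1 each for the Organ Pipe National Monument diet peak and its difference from the others. Median centring gave 2 for the diet rise there and 0 for that difference; removing the first axis gave 0 and 0, with 5 for the regional rise and 1 for the Baja California peak; leaving out the second array order gave 2 and 5, with 1 for the regional rise. The cause was not tested for any of these.

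Leaving out each replicate number gave 9 to 11 for the regional peak, 0 to 3 for the rise, 11 to 18 for the fall, 5 to 17 for the F test, 43 to 48 for the regional level, 22 to 30 and 13 to 16 for the Baja California and Sonoran levels, 22 to 37 and 4 to 16 between the Baja California populations at 0 and 18 h, 0 to 7, 0 to 6 and 0 to 6 for the diet peak, rise and fall in Organ Pipe National Monument, and 0 to 17 for its difference from the others. These fits hold fewer arrays. The fewest regional falls (11) came without replicate 1.

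Replicate numbers are shared by the groups. With the replicate number as a block, 12 transcripts were called for the regional peak, 20 for the fall, 2 for the rise, 17 for the F test, 48 for the regional level, 31 and 17 for the Baja California and Sonoran levels, and 0 for the Organ Pipe National Monument difference from the others. Deviations of arrays of the same number from their group means correlated at a median of -0.0102 over 1039 pairs, against 0.00158 over 3283 pairs of different numbers. Over all pairs, arrays of the same number thus did not deviate more alike. Pairing within a population or cactus was not tested. The rule returned 53 to 60 of the same 60 transcripts when a replicate number was left out, 54 with median centring and 48 with the first axis removed.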
